A study of Mus musculus with 8 samples.

Results

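The 9 genes described here encode receptors for chemokines, the small secreted proteins that steer migrating leukocytes, and were taken by symbol from the deposited tables: Ccr2, Ccr6, Ccr7, Ccr8, Cxcr3, Cxcr4, Cxcr5, Cxcr6 and Cx3cr1. All 9 were found in both tables, which together name 58225 genes, 46556 of them in both. PolyA RNA was sequenced from mouse CD8+ T cells taken from spleens and lymph nodes, with 2 libraries in each of 4 groups. In the first experiment, cells without Trim28 (Trim28-/-) were set against cells with floxed, intact Trim28 (Trim28fl/fl, genotype given as WT), both activated in vitro. In the second, wild-type cells given an antibody to IL-2 were set against untreated wild-type cells, both stimulated through CD3 and CD28 by antibodies over 3 days. Trim28 encodes a co-repressor protein that silences chromatin, and IL-2 is the growth factor that activated T cells make for themselves. The Cre line behind the deletion, the strain, age and number of mice, and the length of activation in the first experiment were not given in the sources used here. Nothing says whether the 2 libraries of a group came from separate mice or cultures, so each p-value speaks to the scatter of a pair of libraries alone, and that scatter may be technical.

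Chemokine receptors are G protein-coupled receptors that signal mainly through inhibitory G proteins to the cytoskeleton and to integrins. Naive T cells carry CCR7 and CXCR4, which read the ligands CCL19, CCL21 and CXCL12 in lymphoid tissue. Activated and effector CD8+ T cells gain receptors for inflamed tissue, among them CXCR3, CXCR6, CCR2 and CX3CR1. CCR6 marks IL-17-producing T cells, B cells and memory cells, CCR8 is known from skin-homing and regulatory T cells, and CXCR5 guides B cells and follicular T cells to B cell follicles.

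Depth lay between 13222831 and 13469789 reads per library in the first experiment and between 16618750 and 17069569 in the second. Trim28 itself had normalised read counts (reads divided by a size factor of each library, as the authors deposited them) of 415 and 458 in the knockout, against 4262 and 4323 in the control. Between the 2 libraries of a group, the median chi-square of a gene relative to pure counting error was 0.873 in knockout, 0.859 in control, 2.31 in IL-2-blocked and 1.21 in untreated cells. The libraries of the first experiment thus differed at the typical gene by no more than counting error, while the mean over genes per degree of freedom was 2.39 and 1.88. Reads given here are recovered from the deposited values, and whether the recovered unit is exactly 1 sequenced read was not settled. The IL-2-blocked pair was the least alike of the 4. Cd3e and Cd8a, which define CD8+ T cells, stood at 2850 and 2711 for Cd3e and 4945 and 5109 for Cd8a in the knockout, against 2143 and 2215 for Cd3e and 4154 and 4324 for Cd8a in the control. Of the 6 CD8 T cell markers 3 were called higher in the knockout and 2 lower, beside 32.9% higher and 28.2% lower over all genes tested. The 2 lower were Cd8b1, at 2828 and 2922 against 4104 and 3915 in the control (log2 fold change -0.48, adjusted p = 0.000139), and Cd3g, at -0.10 (adjusted p = 0.0454). With IL-2 blocked 0 of the 6 were called higher and 4 lower, beside 31.4% higher and 28.9% lower over all genes tested. The 4 were Cd8b1 (log2 fold change -0.54, adjusted p = 2.13e-08), Cd8a (-0.40, 7.16e-07), Cd3g (-0.32, 1.87e-05) and Cd3d (-0.28, 9.54e-05).

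Loss of Trim28 was accompanied by changes in most of these receptors, with Ccr8 and Ccr6 strongly higher and Cxcr4 strongly lower. Of the 9 genes, 8 reached a normalised value of 10 in at least 2 libraries and were tested, and 6 of them were called higher and 2 lower at an adjusted p under 0.05 (limma on log2 of the value + 1, adjusted over 15415 genes). All log2 fold changes given here are on that scale. Over all genes tested, 32.9% were called higher and 28.2% lower, so a call was common in this experiment. Ccr8 passed the filter only through the knockout and Ccr2 reached it in both control libraries but in just 1 knockout library, so the count of called members is a description. Leaving out knockout replicate 1 or 2 took the number of all genes called higher to 3212 or 3234 and lower to 2787 or 2824.

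Blockade of IL-2 was accompanied by higher Ccr6 and Ccr8 and by lower Cxcr3, Ccr7 and Cxcr6. Here too 8 of the 9 genes were tested, 3 were called higher and 3 lower, and Cxcr4 and Cxcr5 did not pass. Over the 13978 genes tested, 31.4% were called higher and 28.9% lower. Cx3cr1 passed the filter only through the blocked libraries, and Ccr2 was below the filter.

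**Figure D1:**
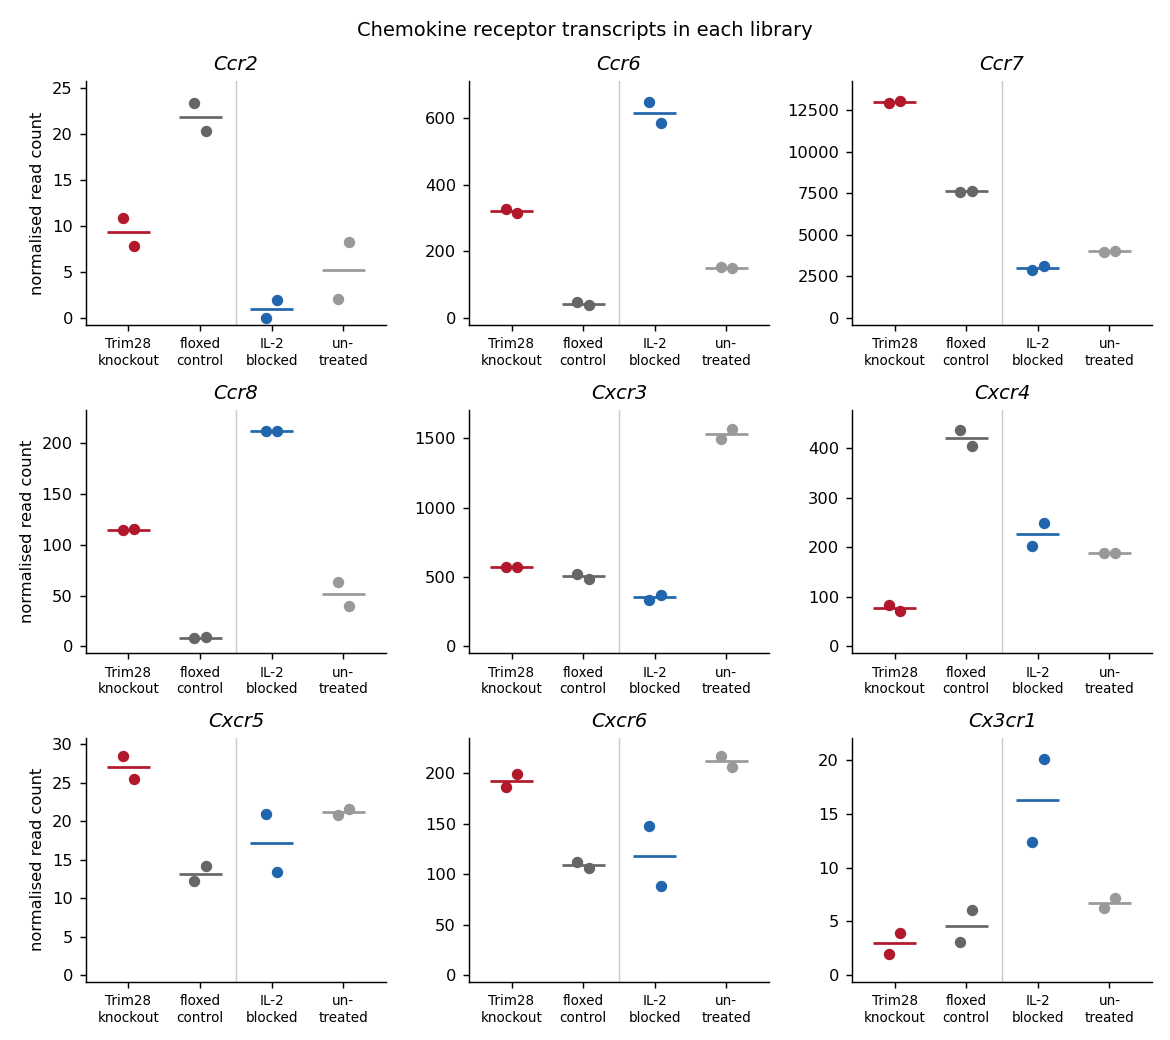
Normalised read count (vertical axis, linear, a scale of its own for each gene) of the 9 receptor genes in each of the 8 libraries, shown as points, with the mean of each pair as a line. Ccr6 and Ccr8 lay higher in both treated groups, at 320 ± 7.97 against 43.6 ± 5.75 for Ccr6 and 115 ± 1.02 against 8.62 ± 0.714 for Ccr8 in knockout and control cells (SD, n = 2).

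Ccr6, the receptor for CCL20, had normalised read counts of 326 and 315 in knockout libraries, against 47.7 and 39.5 in control libraries. Both knockout libraries lay far above both control libraries. This was a 7.35-fold higher mean and a log2 fold change of 2.85 (SE 0.111, n = 2 per group, adjusted p = 1.92e-05). In the second experiment Ccr6 stood at 647 and 586 with IL-2 blocked, against 152 and 149 untreated. It was 4.10-fold higher (log2 fold change 2.03, SE 0.094, adjusted p = 8.26e-13), again with no overlap between the groups.

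Ccr8, the receptor for CCL1, rose with Ccr6. It held 114 and 116 in knockout libraries, against 8.11 and 9.12 in control libraries, where it rested on 8 and 9 reads. The mean was 13.3-fold higher and the log2 fold change was 3.59 (SE 0.147, adjusted p = 2.17e-05), the greatest among the 8 members tested in the knockout. IL-2-blocked libraries held 212 and 212, against 63.4 and 40.2 in untreated libraries. The untreated pair was spread widely, yet both of its libraries lay well below the blocked ones (4.09-fold, log2 fold change 2.05, SE 0.178, adjusted p = 8.40e-09).

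Since Ccr6 and Ccr8 rose together in both experiments, the sequence before their start sites is shown. Next to it stands that of Cxcr3, which fell with blockade, and Cxcr4, which fell in the knockout. The RefSeq table (GRCm38.p6) holds a window for 7 of the 9 genes. It holds none for Ccr7 and Cxcr5. Each line runs 5′ to 3′ toward the start site and stops before the first base that GENCODE places in the gene. Capitals mark the motif matches found.
Ccr6 (chr17:8235793-8236042, plus strand): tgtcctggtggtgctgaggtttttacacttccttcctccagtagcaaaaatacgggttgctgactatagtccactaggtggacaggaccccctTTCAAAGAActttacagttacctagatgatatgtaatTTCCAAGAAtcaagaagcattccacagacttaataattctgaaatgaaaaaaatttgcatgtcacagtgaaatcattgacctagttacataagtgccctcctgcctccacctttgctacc
Ccr8 (chr9:120091883-120092113, plus strand): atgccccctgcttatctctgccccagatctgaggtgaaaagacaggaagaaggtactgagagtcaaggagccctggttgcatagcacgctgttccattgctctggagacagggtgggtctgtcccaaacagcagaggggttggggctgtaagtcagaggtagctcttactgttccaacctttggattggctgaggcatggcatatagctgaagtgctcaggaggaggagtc
Cxcr3 (chrX:101734270-101734397, minus strand): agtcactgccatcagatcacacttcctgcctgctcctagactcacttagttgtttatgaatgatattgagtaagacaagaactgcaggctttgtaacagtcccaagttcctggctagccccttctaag
Cxcr4 (chr1:128592300-128592549, minus strand): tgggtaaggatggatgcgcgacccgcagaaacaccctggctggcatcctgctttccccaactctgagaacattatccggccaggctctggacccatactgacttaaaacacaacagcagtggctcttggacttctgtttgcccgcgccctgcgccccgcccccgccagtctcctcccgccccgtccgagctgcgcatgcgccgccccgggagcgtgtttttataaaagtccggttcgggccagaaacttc

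In the 250 bases before each start site, on both strands, 4 motifs were sought: TTCNNNGAA (bound by STAT factors), GGTGTGA (T-box factors), ACGTG (hypoxia-inducible factors) and GTAAACA (forkhead factors). The window of Ccr6 shown above held TTCNNNGAA at 2 places, which start 157 and 120 bases before the start site and do not overlap. A second Ccr6 start site, 6483 bases further along, had 1 match to ACGTG. No match to any of the 4 was found in these windows of Ccr2, Ccr8, Cxcr3, Cxcr4, Cxcr6 and Cx3cr1. The search also covered bases that GENCODE places within the gene, which the lines above leave out. Such bases made up the whole window of Cx3cr1 and of the second Ccr6 start site, and most of that of Ccr2. They made up part of those of Cxcr3, Ccr8 and Cxcr6. Only these exact letters were sought. Related letters, such as GCGTG in the Cxcr4 line above, were not counted, so a window without a match may hold another form of a site. Over all 32851 windows of this length, 7.02% held TTCNNNGAA, 3.33% GGTGTGA, 16.6% ACGTG and 3.17% GTAAACA. A match describes letters and is not a binding site.

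Ccr7, which brings T cells into lymph nodes, was by far the most abundant of the 9 transcripts. Knockout libraries held 12887 and 13052, against 7590 and 7645 in control libraries. Both pairs were tight, and the knockout was 1.70-fold higher (log2 fold change 0.77, SE 0.0226, adjusted p = 8.74e-06). With IL-2 blocked the values were 2911 and 3110, against 3964 and 4031 untreated. Ccr7 thus fell with blockade, by 0.41 on the log2 scale (SE 0.0524, adjusted p = 1.60e-06), with no overlap.

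Cxcr4, the CXCL12 receptor, fell furthest of the members in the knockout. Its values were 84.7 and 71.6 in knockout libraries, against 437 and 404 in control libraries. Every control library lay well above every knockout library, a 5.39-fold lower mean (log2 fold change -2.42, SE 0.101, adjusted p = 2.28e-05). With IL-2 blocked it stood at 203 and 249, against 188 and 188 untreated. That difference did not pass (log2 fold change 0.26, SE 0.117, 95% interval 0.012 to 0.50, adjusted p = 0.0655), and it rested on the blocked library left in, at 0.40 without replicate A (adjusted p = 0.00705) and 0.11 without replicate B (adjusted p = 0.498). With a filter at a mean of 50 the adjusted p was 0.0482.

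Cxcr5, the CXCL13 receptor, was weakly expressed. Knockout libraries held 28.6 and 25.5, on 29 and 26 reads, against 12.2 and 14.2 in control libraries, on 12 and 14 reads. Limma called it higher (log2 fold change 0.98, SE 0.195, adjusted p = 0.00629), whereas DESeq2 on recovered reads did not (adjusted p = 0.241). In the second experiment the pairs overlapped, with 22 and 14 reads in IL-2-blocked libraries and 20 and 21 in untreated ones (log2 fold change -0.32, 95% interval -0.98 to 0.35, adjusted p = 0.406).

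Cxcr3, which reads the interferon-induced ligands CXCL9, CXCL10 and CXCL11, fell furthest with blockade among the members tested. IL-2-blocked libraries held 337 and 371, against 1491 and 1563 in untreated libraries. The mean was 4.31-fold lower (log2 fold change -2.11, SE 0.0717, adjusted p = 7.91e-15). In the knockout the values were 575 and 574, against 521 and 489 in the control. Although the pairs did not overlap, the mean was only 1.14-fold higher (log2 fold change 0.19, SE 0.0504, 95% interval 0.063 to 0.31, adjusted p = 0.0204). This small call was lost without a filter (adjusted p = 0.065), with upper-quartile rescaling (0.0898), with DESeq2 (0.389), with no mean-variance trend (0.0556), and without knockout replicate 1 (0.128), knockout replicate 2 (0.125) or control replicate 2 (0.0928).

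Cxcr6, the receptor for CXCL16 found on tissue-resident and effector T cells, moved in opposite directions. Knockout libraries held 186 and 199, against 112 and 106 in control libraries, a 1.77-fold higher mean (log2 fold change 0.81, SE 0.0792, adjusted p = 0.00038). IL-2-blocked libraries held 148 and 88.2, against 217 and 206 in untreated libraries. The blocked pair disagreed, but both of its libraries lay below the untreated ones (log2 fold change -0.88, SE 0.171, adjusted p = 0.000198). This fall did not pass without a filter (adjusted p = 0.115) or without a mean-variance trend (0.0700), and its size was -1.25 when blocked replicate A was left out and -0.51 when B was.

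Ccr2, the monocyte and effector cell receptor for CCL2, was near the limit of detection. Its reads were 11 and 8 in the knockout, against 23 and 20 in the control, or normalised values of 10.8 and 7.84 against 23.3 and 20.3. Limma called it lower (log2 fold change -1.15, SE 0.245, adjusted p = 0.0083). The call was lost with DESeq2 (adjusted p = 0.191) and without control replicate 1 (0.0525). In the second experiment it had 0 and 2 reads with IL-2 blocked, against 2 and 8 untreated, where 0 reads allow up to 0.176 CPM (counts relative to the depth of the library) in that library. Ccr2 lies in a cluster of receptor genes with similar coding sequences, and how reads matching more than 1 of them were counted is not stated. The myeloid genes Lyz2 and Csf1r mark cells rich in Ccr2. Lyz2 stood at 4.92 and 11.8 in the knockout, against 8.11 and 45.6 in the control. Csf1r stood at 3.94 and 2.94 in the knockout, against 4.06 and 18.2 in the control. With IL-2 blocked Lyz2 held 5.73 and 6.71, against 2.08 and 4.12 untreated, and Csf1r held 0 and 1.92, against 0 and 0. Of the 8 myeloid and dendritic markers listed, 3 were tested in the knockout and 2 with blockade, where Lyz2 and Csf1r were below the filter. In each experiment 1 was called lower and 0 higher, beside 28.2% and 28.9% of all genes called lower. The lower one was Cd68, at -0.76 in the knockout (adjusted p = 0.000367) and -2.25 with blockade (adjusted p = 9.58e-12). The part of myeloid cells in the Ccr2 difference was not tested.

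Cx3cr1, the fractalkine receptor of cytotoxic effector cells and monocytes, was not tested in the knockout, where it had 2 and 4 reads, against 3 and 6 in the control. With IL-2 blocked it had 13 and 21 reads, against 6 and 7 untreated, with no overlap. The log2 fold change was 1.13 (SE 0.406, adjusted p = 0.0225). It did not pass without a filter (adjusted p = 0.0915), with DESeq2 (0.18), without blocked replicate B (0.164) or without untreated replicate 1 (0.0749).

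**Figure D2:**
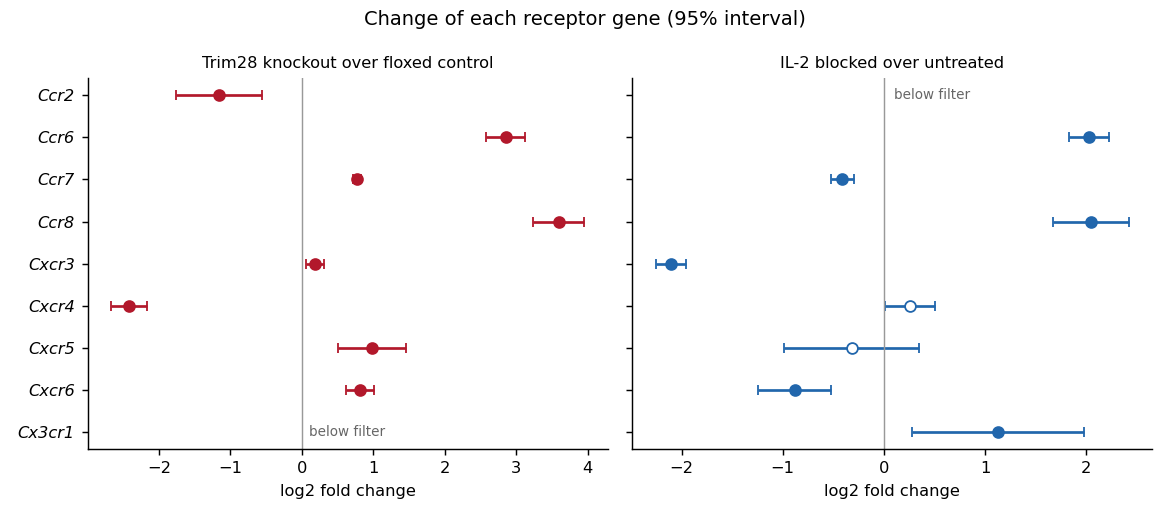
Log2 fold change (horizontal axis) of each receptor gene in the knockout over the floxed control (left) and with IL-2 blocked over untreated (right), with 95% intervals from limma. Filled points had an adjusted p under 0.05. Ccr6 and Ccr8 were above 0 in both panels, at 2.85 and 3.59 on the left and 2.03 and 2.05 on the right, while Ccr7, Cxcr3, Cxcr5 and Cxcr6 were above 0 on the left and below 0 on the right.

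Whether a receptor responded differently in the 2 experiments was tested as the knockout effect minus the blockade effect over the 12428 genes tested in both tables. All 7 members in that fit were called, against 41.7% of all genes in either direction. The difference was greatest for Cxcr4 (-2.68, SE 0.166, adjusted p = 7.28e-08) and Cxcr3 (2.29, SE 0.0907, adjusted p = 1.45e-09) on the log2 scale. Cxcr6 differed by 1.70 (SE 0.254, adjusted p = 0.000185) and Ccr7 by 1.18 (SE 0.0555, adjusted p = 6.45e-09). The 2 receptors that rose in both experiments rose more on the log2 scale in the knockout, Ccr8 by 1.55 (SE 0.285, adjusted p = 0.000887) and Ccr6 by 0.83 (SE 0.15, adjusted p = 0.000792). By reads per exon length and depth both started lower there, Ccr8 at 0.546 in control against 2.56 in untreated cells and Ccr6 at 1.40 against 3.77. They also ended lower, Ccr8 at 7.41 in knockout against 11.1 in IL-2-blocked cells and Ccr6 at 10.5 against 16.3. Cxcr5 was called at 1.30 (SE 0.409, adjusted p = 0.0223), a call lost with DESeq2 (adjusted p = 0.245) and in 5 of the 8 fits without 1 library. The 2 experiments were normalised apart and had controls of their own, so what differs between them besides the treatment cannot be told apart from it.

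To rank the receptors against each other, reads were divided by the length of all annotated exons of a gene and by the depth (RPKM). On this scale Ccr7 led in every group, at 497 ± 4.17 RPKM in knockout, 287 ± 2.07 in control, 93.2 ± 3.96 in IL-2-blocked and 117 ± 2.32 in untreated cells (SD, n = 2). Cxcr3 came next in 3 groups, at 25.2 ± 0.0338 in knockout, 21.7 ± 0.951 in control and 51.3 ± 2.11 in untreated cells. In IL-2-blocked cells Ccr6 took that place, at 16.3 ± 1.22, ahead of Cxcr3 at 12.5 ± 0.8 and Ccr8 at 11.1 ± 0.0475. Cxcr4 stood at rank 6 in knockout cells, at 3.27 ± 0.391, and at rank 3 in control cells, at 17.3 ± 0.916. Ccr6 stood at rank 3 in knockout cells, at 10.5 ± 0.266, and at rank 5 in control cells, at 1.40 ± 0.182. Ccr8 stood at rank 6 in both control and untreated cells, at 0.546 ± 0.0464 and 2.56 ± 0.792. Cxcr5, Ccr2 and Cx3cr1 filled the last 3 places in every group, each under 1. In 30 of the 32 pairs of neighbours in these orders the libraries did not overlap. The exceptions were Cxcr6 and Ccr8 in knockout cells, at 7.55 ± 0.353 and 7.41 ± 0.0617, and Cxcr5 and Cx3cr1 in IL-2-blocked cells.

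**Figure D3:**
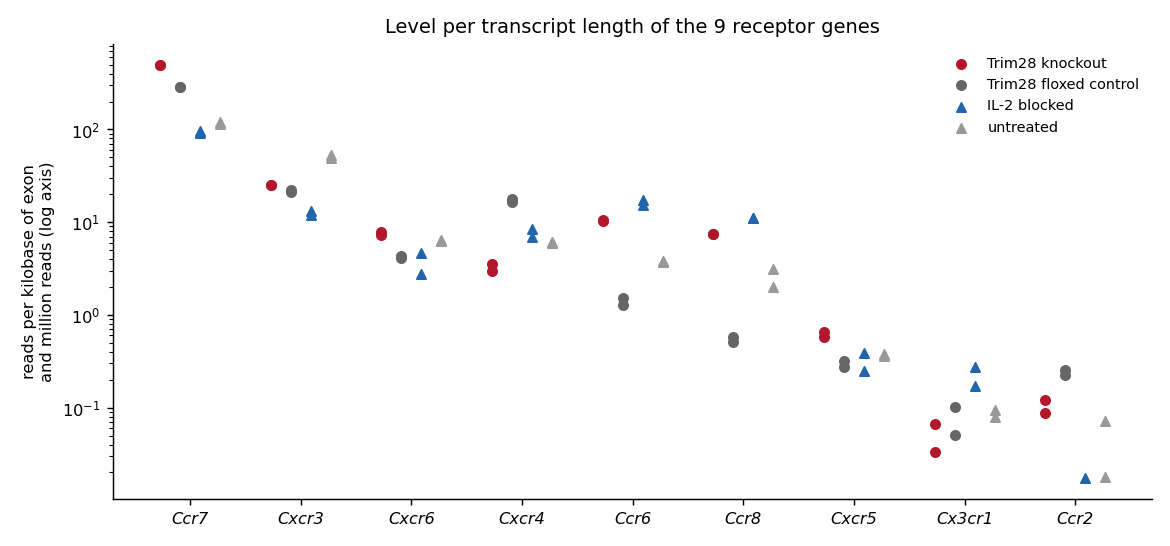
RPKM, the reads per exon length and depth (vertical log axis) of each receptor gene, ordered by the untreated group, with 1 point per library. The library with IL-2 blocked in which Ccr2 had 0 reads cannot be drawn on a log axis. Ccr7 stood at 497 in knockout and 287 in control cells, while Cxcr5, Ccr2 and Cx3cr1 stayed below 1 in all 8 libraries.

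The 9 genes are protein-coding and spread over 5 chromosomes of mm10 (GRCm38), 5 of them on chromosome 9. Cxcr5 lies at 44511787 to 44561877, Cx3cr1 at 119901616 to 120069879, Ccr8 at 120092114 to 120094906, Cxcr6 at 123806475 to 123811760 and Ccr2 at 124101950 to 124113557. Ccr7 is at 99144196 to 99155077 on chromosome 11, Ccr6 at 8236043 to 8257141 on chromosome 17, Cxcr4 at 128588199 to 128592293 on chromosome 1 and Cxcr3 at 101731535 to 101734269 on chromosome X. Only 22234 bases separate Cx3cr1 from Ccr8, yet the first had 2 and 4 reads and the second 116 and 118 in the knockout libraries. Cxcr6 and Ccr2 are 290189 bases apart with the receptor genes Xcr1, Ccr1 and Ccr3 between them. These 2 members moved apart in the knockout, Cxcr6 higher and Ccr2 lower. Cxcr6 lies within the span of Fyco1 on the other strand with no shared exon base, and Fyco1 itself held 198 and 204 in the knockout, against 180 and 179 in the control (log2 fold change 0.16, adjusted p = 0.0736). Cxcr5 shares 3.3% of its exon bases with Bcl9l and Cx3cr1 1.73% with Gm33858, and without strand information such reads cannot be assigned.

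Among 14 other chemokine receptors, 5 were tested in each experiment. In the knockout 1 was higher and 3 were lower, beside 32.9% and 28.2% of all genes tested. With IL-2 blocked 1 was higher and 4 were lower, beside 31.4% and 28.9%. Ccr4, a skin-homing receptor that like Ccr8 marks regulatory T cells, rose in the knockout (log2 fold change 1.19, adjusted p = 8.19e-05) and fell with blockade (-0.64, adjusted p = 1.17e-05). The gene higher with blockade was Ccrl2 (0.40, adjusted p = 0.0253), an atypical receptor-like gene that fell in the knockout (-0.38, adjusted p = 0.04998). Ccr1 was listed at 0 in both IL-2-blocked libraries, against 11.4 and 15.4 in untreated ones. In the knockout Ccr1 held 0 and 5.88, against 12.2 and 16.2 in the control (log2 fold change -2.52, adjusted p = 0.0488). The knockout calls of Ccr1 and Ccrl2 thus lay close to the threshold. Xcr1 held 9.55 and 4.80 with IL-2 blocked against 16.6 and 21.6 untreated (adjusted p = 0.00736), and did not pass in the knockout (adjusted p = 0.876). With blockade, Ccr1 and Xcr1 passed the filter only through the untreated libraries, and Ccr1 in the first experiment only through the control, so the count of lower receptors is a description. The median log2 fold change of the 5 was -0.38 in the knockout and -1.35 with blockade, beside 0.031 and 0.018 over all genes tested.

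Of 15 ligand genes of the 9 receptors 6 were tested in each experiment, with 1 higher and 4 lower in the knockout (median log2 fold change -1.59) while the 6 tested were lower with IL-2 blocked (median -1.87), beside 28.2% and 28.9% of all genes called lower. Some passed the filter only through the group where they were high, Ccl20 and Cxcl9 through the control, and Cxcl9 and Cx3cl1 through untreated cells, so these counts are descriptions. Ccl20, whose product binds CCR6, held 9.85 and 4.90 in knockout against 55.8 and 55.8 in control libraries, and 26.7 and 24.0 with IL-2 blocked against 533 and 515 untreated. Its log2 fold changes were -2.83 (SE 0.31, adjusted p = 0.000604) and -4.32 (SE 0.138, adjusted p = 3.14e-15), opposite in sign to those of Ccr6. Ccl1, whose product binds CCR8, rose in the knockout, at 146 and 142 against 98.4 and 74.0 in the control (log2 fold change 0.75, adjusted p = 0.00566), and fell with blockade, at 324 and 395 against 1056 and 993 untreated (-1.52, adjusted p = 1.83e-11). Cxcl10, whose product binds CXCR3, fell in both, by 2.25 in the knockout (adjusted p = 4e-05) and by 0.42 with blockade (adjusted p = 0.00467) on the log2 scale. Cxcl16, the CXCR6 ligand, fell with blockade (log2 fold change -1.80, adjusted p = 2.14e-07) and did not pass in the knockout (-0.17, adjusted p = 0.194). Ccl7, Ccl12, Ccl19, Ccl21a, Ccl8 and Cxcl11 were listed at 0 in all 4 libraries of the first experiment.

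Of 25 genes that act below the receptors, 24 were tested, with 10 higher and 7 lower in the knockout and 6 higher and 10 lower with IL-2 blocked. These counts stand beside 32.9% higher and 28.2% lower over all genes in the knockout and 31.4% higher and 28.9% lower with blockade, and the medians were -0.0016 and -0.063. The kinase gene Grk6, whose product switches off active receptors, rose in both experiments (log2 fold change 0.95, adjusted p = 3.9e-05, in the knockout and 0.90, adjusted p = 1.7e-10, with blockade). Arrb1, which encodes an arrestin, fell in both (-1.26, adjusted p = 8.21e-05, and -1.18, adjusted p = 2.09e-10). The adhesion kinase gene Ptk2b fell by 0.30 in the knockout (adjusted p = 0.000371) and by 1.19 with blockade (adjusted p = 1.68e-13). Pik3r5, an adaptor of the PI3K that G proteins activate, fell with blockade (-1.08, adjusted p = 1.17e-10) and did not pass in the knockout (-0.0056, adjusted p = 0.906).

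Among 10 transcription factors known to act on receptor genes, 2 were higher and 7 lower in the knockout. With IL-2 blocked, 2 were higher and 8 lower. Of all genes tested, 32.9% were called higher and 28.2% lower in the knockout, and 31.4% and 28.9% with blockade. The median log2 fold changes of the list were -0.52 and -0.99, beside 0.031 and 0.018 over all genes tested. Tbx21 encodes T-bet, which drives Cxcr3 in T cells. It held 1333 and 1264 in knockout against 2407 and 2393 in control libraries, and 1822 and 2032 with IL-2 blocked against 6130 and 5920 untreated. The log2 fold changes were -0.89 (SE 0.0377, adjusted p = 2.44e-05) and -1.65 (SE 0.0568, adjusted p = 9.50e-15). Eomes, a T-box factor, was among the genes higher in the knockout (0.60, adjusted p = 0.00228) and fell with blockade (-1.14, adjusted p = 1.1e-08). Rora, a nuclear receptor gene, was among those higher with blockade (0.60, adjusted p = 3.88e-07) and fell in the knockout (-0.52, adjusted p = 0.00161). Hif1a, the hypoxia factor that induces Cxcr4 in several cell types, fell by 0.68 (adjusted p = 1.93e-05) in the knockout and by 1.06 (adjusted p = 4.55e-12) with blockade. Runx3, a CD8 lineage factor, fell by 0.77 (adjusted p = 2.07e-05) and by 1.29 (adjusted p = 1.30e-13).

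**Figure D4:**
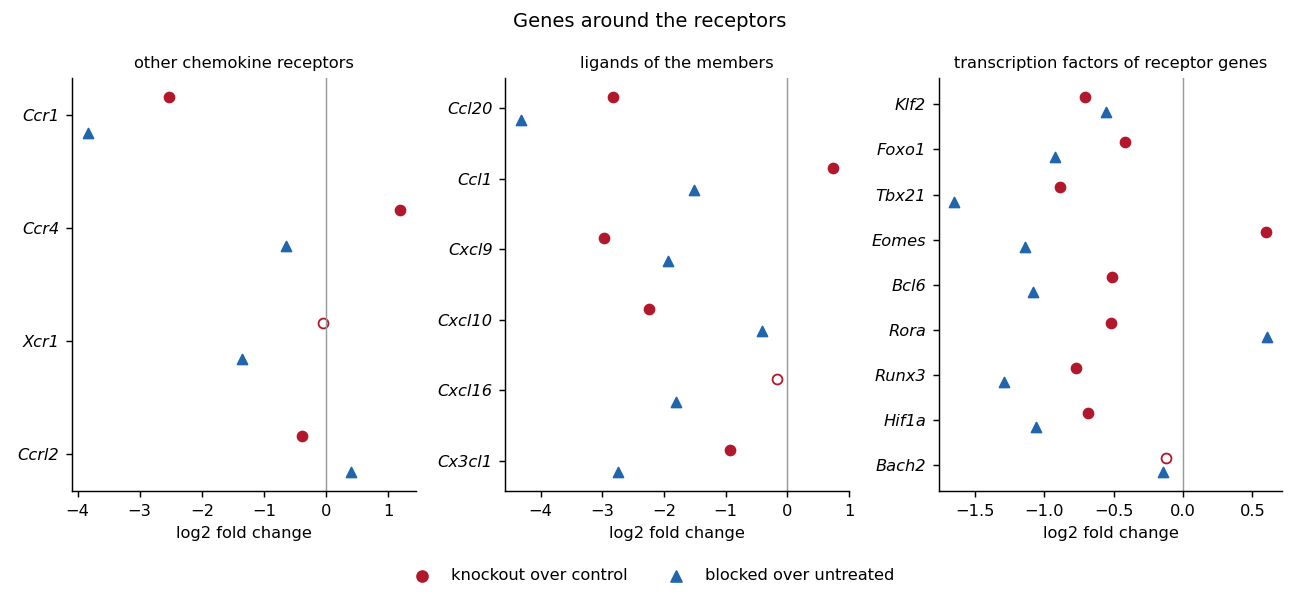
Log2 fold change (horizontal axes) of tested genes among other chemokine receptors, ligands of the 9 receptors, and transcription factors, with circles for knockout over control and triangles for IL-2 blocked over untreated. Filled symbols had an adjusted p under 0.05. Ccl20 lay at -2.83 and -4.32 and Tbx21 at -0.89 and -1.65.

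Some of these receptors are also carried by other cells, and markers of those cells were measured beside them. Fewer cells of a type and less RNA per cell cannot be told apart in bulk RNA. Foxp3, the regulatory T cell factor, stood at 43.3 and 49.0 in knockout libraries, against 4.06 and 5.07 in control libraries. In the second experiment Foxp3 was lower with blockade, at 8.59 and 9.59 with IL-2 blocked and 58.2 and 50.5 untreated. Cd4 was at 7.88 and 6.86 in knockout libraries, against 4.06 and 0 in control libraries. The 4 CD4 T cell markers summed to 11.6 and 12.8 CPM in the knockout, against 37.5 and 39.1 in the control, and to 34.2 and 35.8 with IL-2 blocked, against 32.9 and 29.0 untreated. Most of the knockout difference in that sum was Cd40lg, the gene of CD40 ligand, at 41.4 and 49.0 in knockout against 346 and 365 in control libraries (log2 fold change -2.95, adjusted p = 1.52e-05). Zbtb7b, a CD4 lineage factor, was also lower in the knockout (-1.27, adjusted p = 0.000123). For γδ T cells, which can carry CCR6, the 4 markers summed to 7.54 and 7.87 in knockout and 2.72 and 2.12 in control libraries, with Trdv4 at 0 throughout. The 2 of them listed in the second table summed to 2.23 and 2.69 with IL-2 blocked and 2.28 and 2.11 untreated. The part of regulatory and γδ T cells in the Ccr6 and Ccr8 differences was not tested.

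The 6 B cell markers summed to 1.57 and 2.08 CPM in knockout against 3.55 and 3.78 in control libraries, with Ms4a1 at 0 in all 4. With IL-2 blocked they summed to 3.93 and 3.81, against 3.72 and 3.61 untreated. The 8 myeloid and dendritic markers summed to 10.6 and 11.5 in knockout against 19.1 and 21.5 in control libraries, with Adgre1, Flt3 and Siglech at 0, and to 5.75 and 5.57 with IL-2 blocked against 20.7 and 21.5 untreated. Most of that sum was Cd68, at 125 and 127 in knockout against 222 and 208 in control libraries as normalised counts. NK markers summed to 0.448 and 0.371 in knockout against 0.226 and 0.227 in control libraries, and to 0.117 and 0.0586 with IL-2 blocked against 0.36 and 0.301 untreated, with Ncr1 at 0. Erythroid markers summed to under 1.1 in every library. The 6 CD8 T cell markers summed to 2162 and 2198 in knockout against 1960 and 1927 in control libraries, and to 2394 and 2470 with IL-2 blocked against 2550 and 2584 untreated. The part of these cells in the receptor differences was not tested.

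For each receptor tested in both experiments, the genes with the most similar profile were found among 12427 others by the Euclidean distance of log2 values over the 8 libraries, each centred on its experiment. The nearest to Ccr6 was Cd70, a TNF family ligand gene, at a distance of 0.366, with log2 fold changes of 2.62 in the knockout and 1.80 with blockade, followed by Nrgn. Ccr8 lay nearest to Otud1 (0.437; 3.71 and 1.97) and Fam160a1. Nearest to Cxcr3 were Basp1 (0.128; 0.15 and -2.12) and Ncald. Ccr7 was closest to Peg13 (0.0776; 0.77 and -0.43) and Tmem185b, and Cxcr6 to Phldb3 (0.306; 0.84 and -0.87) and Gm44103. Cxcr4 had a more distant nearest gene, Gm4759 (0.562), and then Farp1. Cxcr5 was closest to 8030451A03Rik (0.325) and Zscan12. The median distance to all genes lay between 1.04 for Ccr7 and 4.13 for Ccr8.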

How the data were processed

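PolyA RNA of CD8+ T cells was measured in 8 libraries. The submitters' processing notes name mm10 and, as tools, DESeq2, StringTie (2.1.4), HISAT2 (2.2.1) and Trim Galore (0.4.4), while the read counter, annotation and strand setting are not given in the sources used here. The deposited values are a normalised signal: read counts divided by a size factor of each library, within each experiment. All values of a library were whole multiples of 1 unit within a tolerance of 0.001 (100%), and this unit was taken as 1 read. Gene lengths came from GENCODE M21 (GRCm38).

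Values were converted to log2 (value + 1), which understates changes of low genes, and compared with limma 3.58.1 (mean-variance trend, R 4.3.3) over genes reaching a value of 10 in 2 or more libraries, with Benjamini-Hochberg adjusted p-values called under 0.05. The experiments were fitted one by one, and the difference between their effects with all 8 libraries together. Alternatives were other pseudocounts (0.5, 5), filters (none, mean of at least 50), scalings (TMM, upper quartile), edgeR 4.0.16 and DESeq2 1.42.0 on recovered reads, no trend, a joint fit, a replicate block and leaving out each library.

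The 9 members and the gene lists were chosen with earlier results of these data known. Named genes were all members, Trim28, the leading 4 or fewer of each list by adjusted p, and the 2 genes nearest to each member in profile. Some genes of the lists are counted but not reported here by name or in figures. Fyco1, Ccrl2, Eomes, Rora and single marker genes were named after their values were seen. Floors (3 reads) cover counting error only.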

Additional observations from a re-analysis of the deposited data

How the results depend on the processing

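Of 344 refits of single receptors, 320 kept their direction and their side of the threshold, 22 lost the call, 2 gained it and 0 changed direction. The calls of Ccr6, Ccr7 and Ccr8 in both experiments, of Cxcr4 and Cxcr6 in the knockout and of Cxcr3 with IL-2 blocked held in every alternative run. The number of members lower in the knockout was 1 with the strict filter, with DESeq2 and in the fit of all 8 libraries, and 1 or 2 when 1 library was left out, where Ccr2 lost its call or was not tested, the strict filter having removed it. DESeq2 called 2846 genes higher and 2660 lower in the knockout, and leaving out 1 library gave 3212 to 4103 higher and 2787 to 3193 lower. On recovered reads edgeR called 4548 higher and 4571 lower in the knockout, and 4258 higher and 4151 lower with IL-2 blocked. Upper-quartile rescaling turned the knockout balance, with 4259 higher and 5078 lower. With IL-2 blocked, leaving out 1 library gave 3360 to 4361 genes higher and 3018 to 4124 lower. Apart from fewer samples or genes in a fit, the cause was not tested. In the first experiment replicate numbers were shared by label only (correlation of deviations 0.013), and a replicate block gave 4881 genes higher and 4197 lower with 6 members higher and 2 lower. No paired fit was made for the second experiment, since the columns of blocked cells carry no replicate number. Depth limits Ccr2, Cx3cr1 and Cxcr5, which rest on 29 or fewer reads per library.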
